A study of Mus musculus with 9 samples.

Results

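TRAV5, TRAV10 and TRAV16 are 3 subgroups of variable (V) gene segments of the mouse T-cell receptor alpha locus. Members were the productive alpha (TRA) chains whose first V call carried the subgroup number 5, 10 or 16, with any copy suffix (-, D or N). A chain was counted once per library for each combination of V gene, joining (J) gene and junction nucleotides. There were 2860 such chains among 22252 distinct TRA chains, of which 1202 were TRAV5, 653 were TRAV10 and 1005 were TRAV16. By number of chains they ranked 7, 12 and 9 among 19 TRAV subgroups.

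Single cells were taken from 3 lymph node types, the deep cervical (dCLN), the superficial cervical (sCLN) and the inguinal node (iLN), of 5xFAD mice, which carry a transgene with familial Alzheimer's disease mutations, and of wild-type (WT) mice. All mice were females of 10 to 11 months, and each node type and genotype gave 1 library. A dCLN library titled CD4 and a library that mixes the 3 node types and both genotypes are given beside these 6. The labels state neither the strain background nor the number of animals behind a library. Intervals on 1 library, or on chains pooled over libraries, therefore cover counting error only. The p-values rest on variation between libraries that may be partly technical.

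Libraries held 1428 to 5750 distinct TRA chains, and the members had a median of 5, 4 and 4 UMIs per chain in TRAV5, TRAV10 and TRAV16, against 5 in the other TRA chains. The second CD4-titled library shared 6829 of its 6915 barcodes with the first, and was left out. The second is labelled 5xFAD and the first, which is used here, WT, so the genotype of these cells is not settled and the library enters no genotype comparison. No other pair of libraries shared more than 47 barcodes, and 0 of those carried the same junction. Barcodes held TRA and TRB contigs and 0 contigs of gamma, delta or immunoglobulin loci. The invariant TRAV11-TRAJ18 chain of type I NKT cells was seen 0 to 5 times per library and the TRAV1-TRAJ33 chain of MAIT cells 1 to 5 times.

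An alpha chain is made when 1 V segment is joined to 1 J segment, and the junction across the joint forms the part of the receptor that varies most. Because the V segments lie upstream of the J segments, a locus can rearrange again, with V segments farther upstream joined to J segments farther downstream. In mice of the C57BL/6 type much of the V cluster is duplicated and triplicated, and the suffixes D and N name such copies. Near-identical copies and alleles share long stretches of sequence, so a V call can assign a chain to the wrong copy.

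On chromosome 14 of GRCm38, with gene models from GENCODE, the functional copies of the 3 subgroups numbered 10, all on the plus strand with 2 or more exons, beside 5 pseudogenes. From the far end towards the J genes they were Trav5-1 (chr14:52622566-52623082), Trav10d (chr14:52810934-52811496), Trav5d-4 (chr14:53001713-53002232), Trav16d-dv11 (chr14:53047287-53047821), Trav10n (chr14:53122114-53122610), Trav5n-4 (chr14:53312904-53313422), Trav16n (chr14:53351028-53351621), Trav10 (chr14:53505727-53506286), Trav5-4 (chr14:53704007-53704514) and Trav16 (chr14:53743104-53743705). Trav16 and Trav5-4 were therefore the copies of their subgroups nearest the J cluster, which began with Traj61 (chr14:54155005-54155076). Trav10 was the nearest copy of its subgroup but lay farther from the J cluster than either.

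To describe copies without relying on their names, chains were grouped by the exact sequence of the mature V region up to the base before the junction. Sequences with at least 10 chains are called V forms here, and 17 of them held 2844 of the 2860 chains (99.4%). Each form is named by its subgroup number, by R where it matched a GENCODE V transcript exactly or N where it did not, and by its rank in chains. Of the 17 forms, 9 were R forms, which together match all 10 functional genes because Trav5d-4 and Trav5n-4 have the same V region, and 8 were N forms.

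The forms differ at 51 of 267 V-region bases in TRAV5, at 6 of 267 in TRAV10 and at 10 of 273 in TRAV16. The stretches below are shown because they separate most forms of each subgroup. They do not separate 5N1 from 5R1, 10R2 from 10R3 or 16N1 from 16R3, which differ only at bases outside the stretches. They run 5′ to 3′ on the coding strand, with positions counted from 1 at the first base of the mature V region. Capitals mark the bases that vary among the forms of the subgroup. The TRAV5 stretch covers positions 1 to 92, in which 5R1 has the same bases as 5N1.
5N1: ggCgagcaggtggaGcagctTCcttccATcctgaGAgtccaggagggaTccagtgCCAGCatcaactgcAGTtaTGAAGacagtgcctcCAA
5N2: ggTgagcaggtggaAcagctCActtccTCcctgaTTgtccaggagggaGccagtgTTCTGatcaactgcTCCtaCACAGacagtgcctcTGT
5N3: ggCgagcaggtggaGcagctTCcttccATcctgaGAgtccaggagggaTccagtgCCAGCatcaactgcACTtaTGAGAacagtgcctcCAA
5R2: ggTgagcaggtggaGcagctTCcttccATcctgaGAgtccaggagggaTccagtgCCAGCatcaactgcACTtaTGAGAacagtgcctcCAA
5R3: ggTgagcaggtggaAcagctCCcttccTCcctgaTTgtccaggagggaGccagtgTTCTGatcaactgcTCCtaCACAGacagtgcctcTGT

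The TRAV10 stretch covers 121 bases from position 15, where 10R2 and 10R3 have the same bases.
10N1: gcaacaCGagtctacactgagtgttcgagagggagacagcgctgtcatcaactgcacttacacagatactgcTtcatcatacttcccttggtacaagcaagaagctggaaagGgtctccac
10N2: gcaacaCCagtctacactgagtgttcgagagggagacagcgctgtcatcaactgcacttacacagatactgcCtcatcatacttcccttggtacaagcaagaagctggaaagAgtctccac
10R1: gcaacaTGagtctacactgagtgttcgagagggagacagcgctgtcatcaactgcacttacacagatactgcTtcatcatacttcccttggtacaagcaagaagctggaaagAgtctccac
10R2: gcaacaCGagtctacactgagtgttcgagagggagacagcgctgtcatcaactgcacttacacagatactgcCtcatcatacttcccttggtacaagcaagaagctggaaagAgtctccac

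The TRAV16 stretch covers 100 bases from position 36, where 16R3 has the same bases as 16N1.
16N1: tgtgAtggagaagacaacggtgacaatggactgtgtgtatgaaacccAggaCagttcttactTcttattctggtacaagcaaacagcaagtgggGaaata
16N2: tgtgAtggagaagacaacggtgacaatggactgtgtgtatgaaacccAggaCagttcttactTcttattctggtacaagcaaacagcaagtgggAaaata
16N3: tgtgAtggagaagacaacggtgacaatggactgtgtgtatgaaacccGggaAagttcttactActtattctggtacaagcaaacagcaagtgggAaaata
16R1: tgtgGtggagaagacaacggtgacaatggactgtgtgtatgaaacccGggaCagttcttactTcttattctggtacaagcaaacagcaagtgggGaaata
16R2: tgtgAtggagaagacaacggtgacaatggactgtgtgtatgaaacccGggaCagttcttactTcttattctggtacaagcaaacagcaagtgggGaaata

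Each N form was close to an R form of its subgroup, here written with the R base first, the position, and the N base. The pair 5R1 and 5N1 differed by T176C and A182G, which changed 2 amino acids. The pair 5R3 and 5N2 differed by C22A, with 1 amino acid changed, and 5R2 and 5N3 by T3C, with 0 changed. In TRAV10, 10R2 and 10N2 differed by G22C, whereas 10N1 was equally near to 10R1 (T21C and A127G) and to 10R3 (C87T and A127G). In TRAV16, 16R3 was the nearest R form to all 3 N forms: to 16N1 by G261A with 0 amino acids changed, to 16N2 by G130A with 1 changed, and to 16N3 by A83G, C87A, T98A, G130A and G241A with 5 changed. TRAV5 and TRAV10 forms shared 76.4% to 78.7% of their bases.

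Forms that match the reference were nearly absent from the 5xFAD libraries and present in every WT library. The 3 5xFAD libraries held N forms with 1 exception: 1 of their 1112 member chains (0.0899%, exact 95% interval 0.00228% to 0.500%) matched a reference V transcript, a 16R2 chain in sCLN. The interval pools the chains of the 3 libraries and covers counting error only, not the spread between libraries or animals. In WT libraries all 9 R forms and all 8 N forms were present. Among the other TRA chains, 15.3% to 16.9% matched a reference transcript in 5xFAD libraries and 56.8% to 58.3% in WT libraries.

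In TRAV5, 0 of 198, 0 of 217 and 0 of 59 chains matched the reference in the 5xFAD dCLN, sCLN and iLN libraries, which allows shares of up to 1.52%, 1.38% and 5.08% by a floor of 3 counts. The WT libraries had 20.0% (13 of 65), 25.0% (13 of 52) and 25.3% (23 of 91). In TRAV10 the 5xFAD counts were 0 of 98, 0 of 93 and 0 of 39, allowing up to 3.06%, 3.23% and 7.69% by the same floor, and the WT shares were 35.0%, 48.6% and 53.6%. In TRAV16 the 5xFAD libraries had 0 of 175, 1 of 166 and 0 of 67, and the WT libraries 30 of 75 chains, 37.2% and 41.9%. In each subgroup every 5xFAD library lay below every WT library. No test was made of these shares, since an exact permutation test over 3 node types cannot go below 0.25.

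Outside these 6 libraries, reference matches made up 12.3%, 23.3% and 22.8% of TRAV5, TRAV10 and TRAV16 chains in the CD4-titled library, where 37.8% of other TRA chains matched. In the mixed library they made up 89.6%, 97.1% and 93.1%, above each of the 6 libraries of either genotype, against 95.5% of other TRA chains. The mixed library, labelled as holding both genotypes, thus had few N forms: 9 of its 115 TRAV5 chains were 5N1, and 2 of its 103 TRAV10 chains were 10N1.

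**Figure D1:**
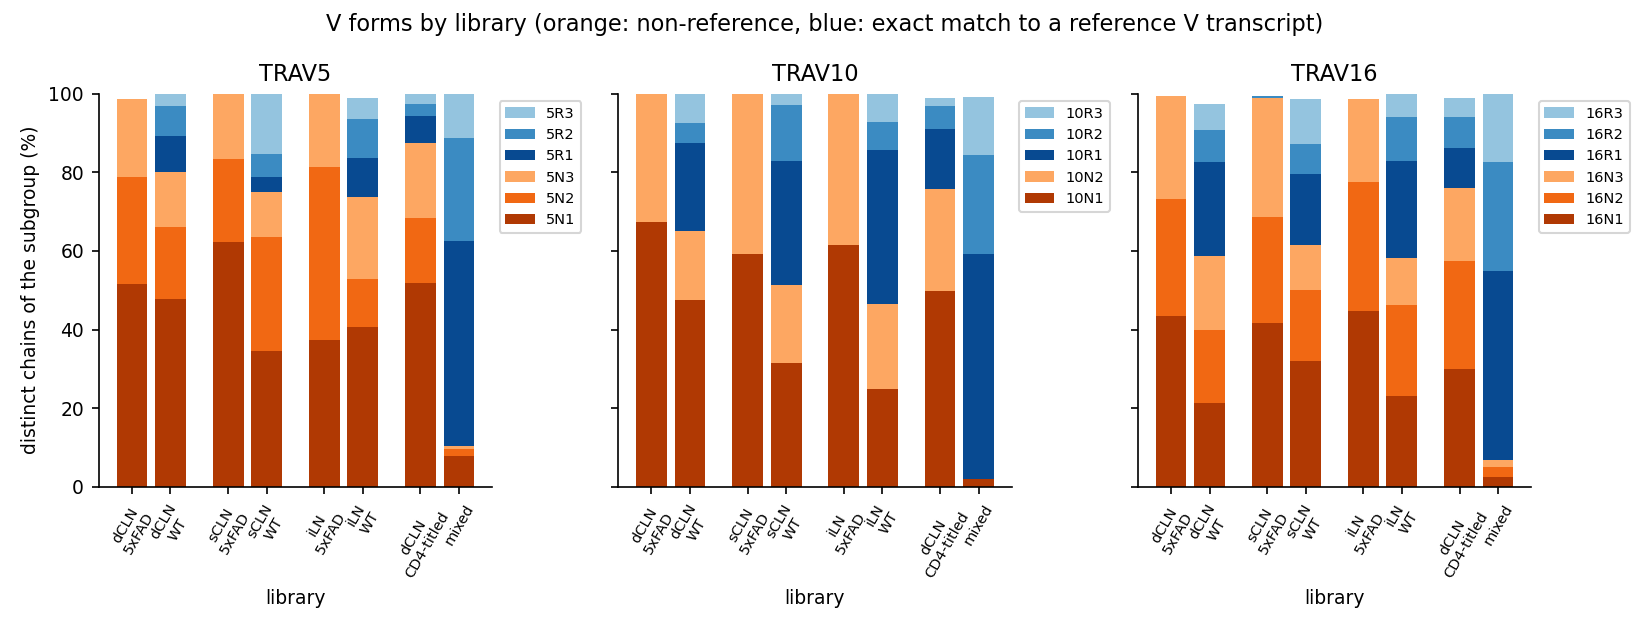
Percent of the distinct chains of TRAV5, TRAV10 and TRAV16 (y axis) that carried each V form, by library (x axis, 5xFAD left of WT within each node). Orange bars are forms that match no reference V transcript and blue bars are exact matches. The 5xFAD bars are orange but for 1 TRAV16 chain in sCLN, the WT bars are mixed, and the mixed library is largely blue.

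The form 5N1 was the commonest of TRAV5 in the 5xFAD dCLN and sCLN libraries (51.5% and 62.2%), but in iLN 5N2 was more frequent (44.1% against 37.3%). In WT libraries 5N1 made up 47.7%, 34.6% and 40.7%. The form 10N1 held 67.3%, 59.1% and 61.5% of TRAV10 chains in 5xFAD libraries and 47.5%, 31.4% and 25.0% in WT libraries, and 10N2 held the rest of the 5xFAD chains. In TRAV16, 16N1 held 43.4%, 41.6% and 44.8% in 5xFAD libraries and 21.3%, 32.1% and 23.1% in WT libraries.

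Within the reference chains of the libraries that hold them, the copies could be read by sequence. Trav10 (10R1) supplied 59.0% to 73.3% of the reference TRAV10 chains over 5 libraries, and Trav10n and Trav10d the rest. Trav16n (16R1) was the most frequent TRAV16 copy in dCLN WT, with 18 of 29 reference chains (62.1%), and had 77 of 149 in the mixed library. Trav5-4 (5R1) ranged more widely, from 15.4% of 13 reference TRAV5 chains in sCLN WT to 58.3% of 103 in the mixed library.

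The names given by the calls did not follow the forms. Chains of 5R1, which match Trav5-4, were called TRAV5D-4*02 in the 6 libraries, as were those of 5N1, but TRAV5-4*02 in the CD4-titled and mixed libraries, which were called with another allele set. Likewise 16R2, which matches Trav16, was called TRAV16D/DV11*03 in the 6 libraries and TRAV16*06 in the other 2. Chains of 16N2 were divided between TRAV16*02 and an ambiguous call of TRAV16*01 with TRAV16D/DV11*02, which 16R3 chains also received. In the 6 libraries 0 chains were called TRAV5-4.

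By the deposited calls, copies and alleles were compared between genotypes with edgeR's quasi-likelihood test over 3 node types. The 3 libraries of a genotype served as its replicates and may come from the same mice. The p-values therefore do not measure the spread between animals. Of 78 TRAV copies tested, 19 differed (24.4%), and 1 of the 7 copies of these subgroups was among them. TRAV16N, the triplicate copy, had 0 chains in each 5xFAD library and 18, 14 and 29 in WT dCLN, sCLN and iLN. Against a floor of 3 counts over the group, this is at least 32.9-fold lower in 5xFAD libraries (edgeR adjusted p = 5.23e-09). The call was lost without the dCLN WT library (adjusted p = 0.150), after which 3 copies were called, and 8 copies were called without dCLN 5xFAD. In the libraries that then remained, TRAV16N still had 0 chains in 5xFAD and 14 and 29 in WT. Its only allele in these libraries, TRAV16N*01, was called in 12 of 12 alternatives, with a highest adjusted p of 0.0309. The other 6 copies did not pass, with adjusted p between 0.247 and 0.829. The copies' median log2 change was 0.28 for these 7 and 0.14 for all 78.

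At the level of alleles, 58 of 116 differed (50%), and 5 of the 13 alleles of these subgroups. TRAV10*02, called for the 10R1 chains, had 0 chains in 5xFAD libraries and 9, 11 and 22 in WT libraries, at least 22.6-fold lower (adjusted p = 1.48e-06). It was called in 11 of 12 alternatives. Without dCLN WT the adjusted p was 0.0905, with 0 chains in 5xFAD against 11 and 22 in the remaining WT libraries. TRAV5D-4*05 had 0 chains in 5xFAD libraries and 17 in WT libraries, at least 9.16-fold lower (adjusted p = 0.00251). All 17 carried an ambiguous call of TRAV5D-4*05 with TRAV5N-4*01, the call of 5R2, so TRAV5D-4 and TRAV5N-4 cannot be told apart here. TRAV16D/DV11*03 had 1 chain in 5xFAD libraries and 27 in WT libraries, a ratio of 0.0229 with a counting interval of 0.000560 to 0.139 (adjusted p = 0.000878). TRAV16N*01 holds the same chains as the TRAV16N copy. TRAV10*01 was higher in 5xFAD libraries, with 145 chains of 8025 against 46 of 4965 in WT libraries (log2 change 0.90 ± 0.34 SE, adjusted p = 0.0188). Only 3 of 13 alternatives called TRAV10*01, with log2 changes from 0.03 to 1.18 over the 13.

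These allele calls depended on the choice of libraries and scaling. The number of alleles called was 9 without dCLN WT, 25 without dCLN 5xFAD and 37 without sCLN WT. TRAV5D-4*05 and TRAV16D/DV11*03 lost their calls without dCLN 5xFAD, dCLN WT or sCLN WT, with adjusted p of 0.0539 to 0.246. TMM scaling moved the median of all alleles by -0.65 on the log2 scale. The split of calls was 17 higher and 41 lower in 5xFAD libraries as scaled by totals, and 0 higher and 46 lower with TMM. TRAV10*01 then had a log2 change of 0.23 (adjusted p = 0.735).

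When chains with a reference-matched V region were set aside, an alternative chosen after the data were seen, edgeR called 0 of 63 alleles, 0 of 53 copies and 0 of 61 subgroups and TRAJ genes. At an unadjusted p under 0.05 there were 0, 0 and 1. Reference matches were 1 of 1112 member chains in 5xFAD libraries, so this choice removes that difference between the genotypes by construction. Among the chains that remained, TRAV10*01 had a log2 change of 0.03 ± 0.36 (SE) between 5xFAD and WT libraries, and TRAV5D-4*02 one of -0.26 ± 0.30.

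Summed over copies, none of the 3 subgroups passed the test between genotypes. Of 61 TRAV subgroups and TRAJ genes, edgeR called 0 (0% of those tested) and DESeq2 0, with 10 and 4 at an unadjusted p under 0.05. TRAV5 made up 5.55%, 7.42% and 3.85% of TRA chains in the 5xFAD dCLN, sCLN and iLN libraries, and 4.43%, 3.64% and 4.40% in the WT libraries. The mean was 5.61% ± 1.78 in 5xFAD and 4.16% ± 0.45 in WT (SD, n = 3 libraries each), with a log2 change of 0.41 ± 0.23 (SE, adjusted p = 0.495). The genotypes overlapped, since TRAV5 was lower in 5xFAD in iLN.

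Within nodes the TRAV5 ratio varied. In sCLN the share in the 5xFAD library exceeded that in the WT library by 1.02 on the log2 scale (95% counting interval 0.59 to 1.44). In dCLN the log2 ratio was 0.32 (-0.08 to 0.71) and in iLN -0.19 (-0.65 to 0.27). Without either iLN library, the fit to the rest called TRAV5 (log2 change 0.67, adjusted p = 0.0154 without iLN 5xFAD and 0.0157 without iLN WT), among 4 and 3 of 61 features called. With node as a term, both fits draw the genotype difference from the same 4 libraries and are 1 result.

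TRAV10 made up 2.75%, 3.18% and 2.55% of TRA chains in the 5xFAD libraries and 2.73%, 2.45% and 2.71% in the WT libraries, a log2 change of 0.10 ± 0.14 (SE, adjusted p = 0.752). Its 6 shares lay within 1 percentage point of each other and their counting intervals overlapped. TRAV16 made up 4.91%, 5.67% and 4.37% in the 5xFAD libraries and 5.11%, 5.46% and 5.65% in the WT libraries, a log2 change of -0.12 ± 0.12 (SE, adjusted p = 0.699). Its genotypes overlapped too, and each within-node counting interval included 0.

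The CD4-titled and mixed libraries had TRAV5 shares of 7.04% and 3.27%, TRAV10 shares of 3.29% and 2.93%, and TRAV16 shares of 2.90% and 4.56%. The TRAV16 share of the CD4-titled library was lower than in each of the 6 libraries, and its interval (2.49% to 3.37%) did not reach that of the lowest of them, iLN 5xFAD (3.41% to 5.52%). Over the 8 tables, the subgroups whose log2 shares followed TRAV5 most closely were TRAV10, TRAV17 and TRAV9 (Pearson r = 0.73, 0.38 and 0.25). For TRAV10 they were TRAV17, TRAV9 and TRAV5 (0.86, 0.79 and 0.73), and for TRAV16 they were TRAV8, TRAV13 and TRAV19 (0.66, 0.55 and 0.43). These are descriptions over 8 libraries, and shares of 1 library add to a fixed whole.

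**Figure D2:**
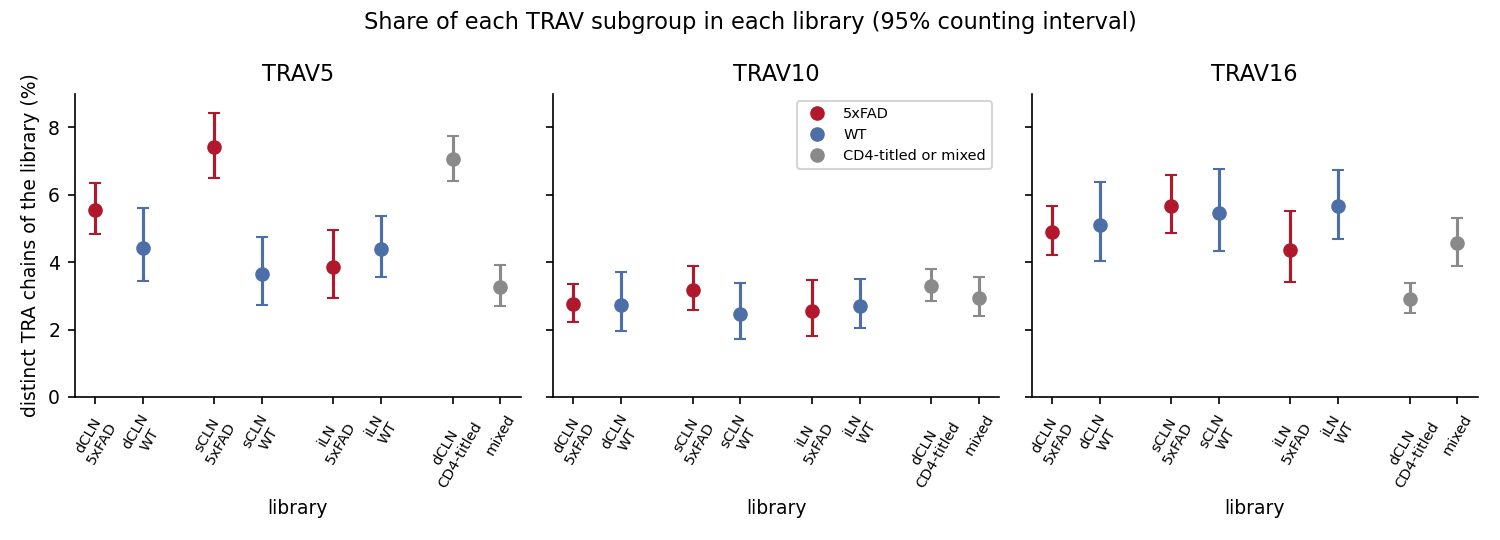
Percent of the distinct TRA chains of each library (y axis) that belong to TRAV5, TRAV10 and TRAV16, by library (x axis, 5xFAD left of WT within each node), with exact 95% intervals that cover counting error only. TRAV5 in sCLN was 7.42% in the 5xFAD library and 3.64% in the WT library, and TRAV16 was lowest, at 2.90%, in the CD4-titled library.

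TRAJ partners separated V forms that differ by few bases. TRAJ genes are numbered against their order on the chromosome, so high numbers lie nearest the V genes. In TRAV5, genes numbered 40 and above joined 55.3% of 5N1 chains (312 of 564) and 56.2% of 5R1 chains (59 of 105). They joined 11.2% of 5N2, 13.1% of 5N3 and 13.6% of 5R2 chains, and 0 of 38 5R3 chains, which allows up to 9.25% by an exact interval. The median TRAJ number was 42 in both 5N1 and 5R1, against 27 in 5N2, 22 in 5N3, 23 in 5R2 and 24.5 in 5R3.

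TRAV16 forms fell into similar classes. Genes numbered 40 and above joined 71.0% of 16N2 chains (159 of 224), 59.1% of 16N3 (107 of 181) and 72.3% of 16R2 (60 of 83). They joined 15.2% of 16N1, 15.5% of 16R1 and 21.1% of 16R3 chains. The forms 16N1 and 16N2 differ by G130A and A261G alone, written with the 16N1 base first, yet their TRAJ shares lay far apart in every library that had at least 5 chains of each. The range over 7 libraries was 63.6% to 80.4% for 16N2 and 6.25% to 22.4% for 16N1. The V region of 16N2 was nearest to that of 16R3, whose share was 21.1%.

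TRAV10 forms lay closer together. The shares were 32.6% in 10N1, 25.6% in 10N2, 27.7% in 10R1, 22.9% in 10R2 and 7.41% in 10R3, the last from 2 of 27 chains. Exact 95% intervals were 27.2% to 38.4% for 10N1 and 19.1% to 33.1% for 10N2. TRAJ numbers under 20 were found in 22.5% of 10N1 and 18.5% of 10R1 chains, against 40.6% of 10N2, 41.7% of 10R2 and 40.7% of 10R3 chains.

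**Figure D3:**
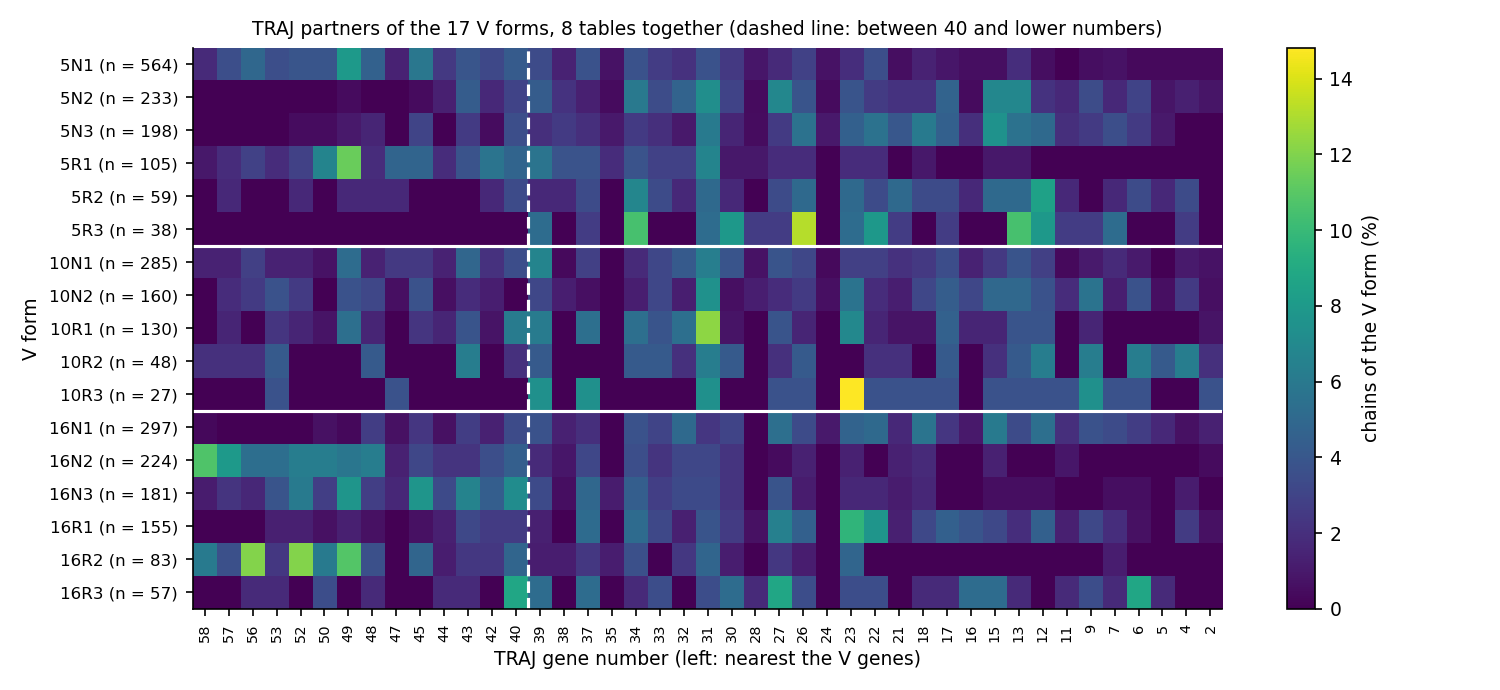
Percent of the chains of each V form (colour) that used each TRAJ gene (x axis, numbered from the gene nearest the V cluster on the left), for the 17 V forms (y axis, number of chains in brackets) over 8 tables together. Rows 5N1, 5R1, 16N2, 16N3 and 16R2 are bright left of the dashed line at TRAJ40, and rows 5N2, 5N3, 5R2, 5R3, 16N1, 16R1 and 16R3 right of it.

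The comparison of single TRAJ genes was made for each of the 8 N forms against the other chains of its subgroup in the same library, and was added after the data were seen. Over the 8 forms together, edgeR's quasi-likelihood test with library as block called 15 of 220 pairs of form and TRAJ gene (6.82%), with p-values adjusted over all 220. The calls were 5 each in 5N1, 16N1 and 16N2, and 0 each in 5N2, 5N3, 16N3, 10N1 and 10N2, which had 10, 4, 5, 0 and 0 at an unadjusted p under 0.05. Forms of 1 subgroup are partly complements of each other, so their calls are not independent.

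In 5N1, TRAJ56, TRAJ53 and TRAJ52 were higher and TRAJ15 and TRAJ12 lower than in other TRAV5 chains. TRAJ56 joined 14 of 345 5N1 chains and 0 of 333 other TRAV5 chains (adjusted p = 0.00693). TRAJ53 joined 11 and 0 (adjusted p = 0.0110), and TRAJ52 joined 13 and 0 (adjusted p = 0.0138). TRAJ56 and TRAJ53 were higher in 4 of 6 libraries each and TRAJ52 in 3 of 6, and each was absent from both sides in the rest. TRAJ15 joined 0.870% of 5N1 chains and 6.61% of the others, a log2 change of -2.76 ± 0.85 (SE, adjusted p = 0.0300). The direction of TRAJ15 was the same in 6 of 6 libraries.

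In 16N2, TRAJ58, TRAJ57 and TRAJ56 were higher and TRAJ22 and TRAJ12 lower than in other TRAV16 chains. TRAJ58, among the J genes nearest the V cluster, joined 10.9% of 174 16N2 chains and 0.803% of 498 others. Its log2 change was 3.48 ± 0.61 (SE, adjusted p = 1.00e-05), in 6 of 6 libraries. TRAJ22 joined 0 of 174 and 23 of 498 (adjusted p = 0.0138). All 5 calls in 16N1 were lower: TRAJ58, TRAJ57, TRAJ53 and TRAJ52 joined 0 of 243 16N1 chains each, against 23, 17, 19 and 24 of 429 others, and TRAJ49 joined 1 against 28 (adjusted p from 0.0138 to 0.0492).

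By position, the 12 tested TRAJ genes numbered 40 and above had positive fitted changes in 12 of 12 cases in 5N1, with a median log2 change of 1.94 against -0.25 over all 32 genes. In 16N2 the counts were 10 of 13, with a median of 0.85 against -0.11 over all 32, and in 16N1 1 of 13, with -2.04 against 0.04. Genes under 20 were negative in 7 of 7 cases in 5N1, 16N2 and 16N3, and positive in 7 of 7 in 5N3 and 16N1. Positive cases under 20 were 5 of 7 in 5N2, 1 of 3 in 10N1 and 2 of 3 in 10N2. Over all 32 genes, 19 were negative in 5N1, 17 in 16N2 and 19 in 16N3, and 11 were positive in 5N3 and 16 in 16N1. The number of called pairs depended on the libraries: it was 10 without dCLN WT, 7 without sCLN 5xFAD, 6 without iLN 5xFAD, 5 without sCLN WT, 2 without iLN WT and 1 without dCLN 5xFAD. With the CD4-titled and mixed libraries added it was 52, and with no minimum number of chains it was 5.

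Between genotypes, the ranges of this share over 3 libraries each overlapped in all 8 N forms. In 16N1 the overlap was narrow, with 14.5% to 22.4% in 5xFAD libraries and 6.25% to 14.8% in WT libraries, and means of 19.0% ± 4.0 and 11.0% ± 4.4 (SD). In 5N1 the means were 55.0% ± 3.7 in 5xFAD and 58.8% ± 4.1 in WT libraries, in 5N2 8.72% ± 4.6 and 13.3% ± 4.9, and in 5N3 11.1% ± 2.5 and 8.97% ± 8.1. In 16N2 they were 67.4% ± 3.7 in 5xFAD and 69.8% ± 7.7 in WT libraries, and in 16N3 52.0% ± 15.3 and 60.1% ± 13.98. In 10N1 they were 34.6% ± 7.2 in 5xFAD and 41.7% ± 13.6 in WT libraries, and in 10N2 22.3% ± 9.1 and 22.6% ± 7.4. These differences were not tested.

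Reference chains allowed the copies to be ordered by their place in GRCm38. This comparison was added after the data were seen, and rests on the R-form chains whose shares are given above. For TRAV16, the share of TRAJ genes numbered 40 and above in Trav16, the copy nearest the J genes, exceeded that in Trav16n and Trav16d-dv11 together by 57.2 percentage points on average (75.5% against 18.3%), in 5 of 5 libraries. For TRAV5, Trav5-4 exceeded the other copies by 55.7 points (61.7% against 5.96%), in 5 of 5 libraries. For TRAV10, Trav10 exceeded the others by 13.7 points (30.3% against 16.6%), in 4 of 5. The two-sided exact sign-flip permutation p was 0.0625, 0.0625 and 0.188, adjusted to 0.0938, 0.0938 and 0.188 over the 3, and 5 libraries cannot give a p below 0.0625. The sCLN WT value for TRAV5 rests on 2 Trav5-4 chains, and the mean without that library was 46.9 points. The TRAV10 mean was 6.00 points without dCLN WT.

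**Figure D4:**
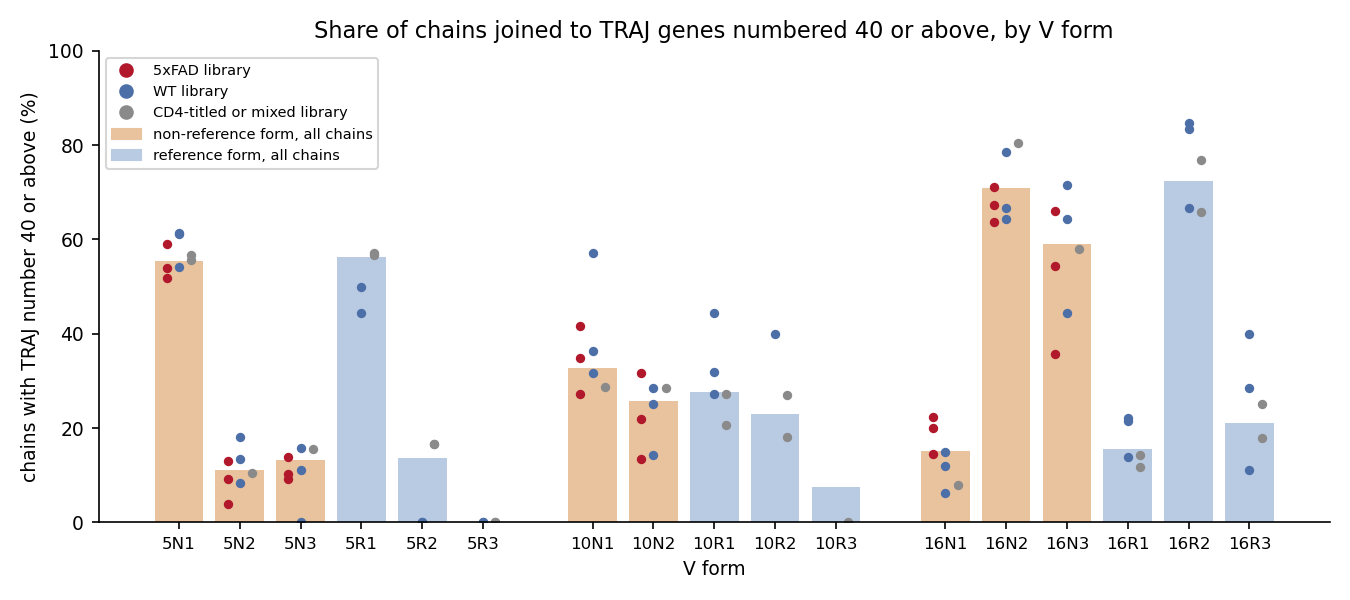
Percent of chains joined to TRAJ genes numbered 40 or above (y axis) for each V form (x axis). Bars pool the chains of 8 tables, and points are libraries with at least 5 chains of the form. The forms 5N1, 5R1, 16N2, 16N3 and 16R2 stand between 55.3% and 72.3%, the other TRAV5 and TRAV16 forms between 0% and 21.1%, and the TRAV10 forms between 7.41% and 32.6%.

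Summed over forms, TRAJ use of the 3 subgroups stood nearer to that of other chains. Of 42 TRAJ genes tested in each subgroup against the other TRA chains of the same libraries, edgeR called 0 in TRAV5, 0 in TRAV10 and 0 in TRAV16 (0% each), and DESeq2 0 in each. At an unadjusted p under 0.05 edgeR had 1, 5 and 6, and DESeq2 0, 2 and 2. TRAV5 and TRAV16 each used 42 of the 43 TRAJ genes seen in these libraries, and TRAV10 41. The share of genes numbered 40 and above was 31.9% ± 6.0 (TRAV5), 30.1% ± 1.0 (TRAV10) and 43.1% ± 3.7 (TRAV16) in 5xFAD libraries, where other chains had 35.3% ± 0.6. In WT libraries it was 33.2% ± 3.3, 31.0% ± 3.2 and 39.9% ± 6.1, where other chains had 30.6% ± 1.6 (SD, n = 3 each).

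The TRAJ genes named by rule, with at least 5 chains per library on average observed or expected, did not pass the threshold. In TRAV5, TRAJ49 had a log2 change of 0.46 ± 0.31 (SE, adjusted p = 0.635) and TRAJ31 one of 0.33 ± 0.33 (adjusted p = 0.752). In TRAV16, TRAJ40 had 0.47 ± 0.27 (adjusted p = 0.469) and TRAJ31 -0.54 ± 0.26 (adjusted p = 0.356).

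TRAJ22, TRAJ31 and TRAJ39 in TRAV10, and TRAJ58 in TRAV16, were chosen after their values were seen. TRAJ31 joined 9.18%, 5.38% and 10.3% of TRAV10 chains in 5xFAD dCLN, sCLN and iLN and 5.00%, 5.71% and 10.7% in WT, and was higher than in other chains in 6 of 6 libraries (log2 change 0.69 ± 0.21 SE, adjusted p = 0.288). TRAJ39 was higher in TRAV10 than in other chains in 4 of 6 libraries (log2 change 0.80 ± 0.38 SE, adjusted p = 0.382). Its highest share was in dCLN WT, from 6 of 40 chains. In iLN it was lower than in other chains, with 0 of 39 TRAV10 chains in 5xFAD and 1 of 56 in WT. With the CD4-titled and mixed libraries added, TRAV10 was called for TRAJ31 (0.68, adjusted p = 0.0287), TRAJ39 (0.91, adjusted p = 0.0143) and TRAJ50 (-2.28, adjusted p = 0.0143). TRAJ22 joined 6 TRAV10 chains where 14.7 were expected (-1.28 ± 0.43 SE, adjusted p = 0.233), and was called with TMM scaling (-1.70, adjusted p = 0.0156). TRAJ58 joined 3.43%, 3.01% and 2.99% of TRAV16 chains in 5xFAD dCLN, sCLN and iLN and 4.00%, 1.28% and 5.13% in WT, above other chains in 6 of 6 libraries (1.10 ± 0.34 SE, adjusted p = 0.0760). It was called with those 2 libraries added (1.07, adjusted p = 0.0319) and with chains of 2 or more UMIs (1.16, adjusted p = 0.0448).

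TRAJ50 joined few TRAV10 chains. It was found in 3 of 653 TRAV10 chains (0.459%, exact 95% interval 0.0948% to 1.34%), whereas TRAJ50 was used by 2.21% of the other TRA chains. In the 6 libraries the log2 change of TRAJ50 in TRAV10 was -1.48 ± 0.74 (SE, adjusted p = 0.383), from 3 chains where 8.44 were expected. Its share was lower in 6 of 6, but each library had only 0 or 1 such chain, so this agreement shows little. The 3 junctions had 1, 2 and 5 added bases in the deposited calls, in the order dCLN 5xFAD, iLN WT and sCLN 5xFAD, and are shown because they carry this count. Capitals mark the run of bases at the 5′ end that is shared with the germline end of a TRAV10 gene.
dCLN 5xFAD: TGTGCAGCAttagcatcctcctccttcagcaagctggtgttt
iLN WT: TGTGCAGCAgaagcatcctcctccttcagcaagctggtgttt
sCLN 5xFAD: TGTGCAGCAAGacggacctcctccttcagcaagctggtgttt

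Their beta chains used TRBV1, TRBV2 and TRBV13-3. The CD4-titled library had 0 TRAV10-TRAJ50 chains of 189 and the mixed library 0 of 103, which allows shares of up to 1.59% and 2.91% by a floor of 3 counts. TRAV10 was joined to TRAJ18, the J gene of the invariant type I chain, in 14 of 653 chains (2.14%, exact 95% interval 1.18% to 3.57%), and TRAJ18 was used by 2.61% of the other TRA chains. The junctions of these 14 chains ranged from 36 to 48 nucleotides.

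Junctions of TRAV16 chains were longer than those of other chains, and those of TRAV5 and TRAV10 shorter, in all 6 libraries. The mean TRAV16 junction had 44.2 ± 0.24 nucleotides and that of other TRA chains 40.2 ± 0.18 (SD, n = 6 libraries), a difference of 4.01 ± 0.17. TRAV5 junctions had 39.5 ± 0.20 and other chains 40.5 ± 0.20, a difference of -0.96 ± 0.22. TRAV10 junctions had 39.9 ± 0.56 and other chains 40.5 ± 0.18, a difference of -0.60 ± 0.44. Each two-sided exact sign-flip permutation test gave p = 0.03125, the smallest that 6 libraries allow, and 0.0625 after Benjamini-Hochberg adjustment over 6 comparisons, so none passed the threshold of 0.05.

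The germline ends of the V genes differ in length between TRAV16 and both TRAV5 and TRAV10. Ends of other V genes were not read, and whether the ends account for the junction lengths was not tested. From the first base of the junction, Trav16, Trav16d-dv11 and Trav16n end after 17 bases and the TRAV5 and TRAV10 genes after 13. These ends are shown because they make up the 5′ part of each junction, with the whole germline stretch as read from the GENCODE transcripts.
TRAV16 genes: tgtgctatgagagaggg
TRAV10 genes: tgtgcagcaagca
Trav5-4, Trav5d-4 and Trav5n-4: tgtgctgcaagtg
Trav5-1: tgctcagcaagta

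The first 12 of these bases were present unchanged in 89.7% of TRAV16 and 63.99% of TRAV10 chains of the 6 libraries. In TRAV5 the first 12 bases of Trav5-4 were present in 40.03%, and chains of the Trav5-1 kind start with other bases. The most frequent junction length was 45 nucleotides in TRAV16 and 39 in TRAV5 and TRAV10.

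**Figure D5:**
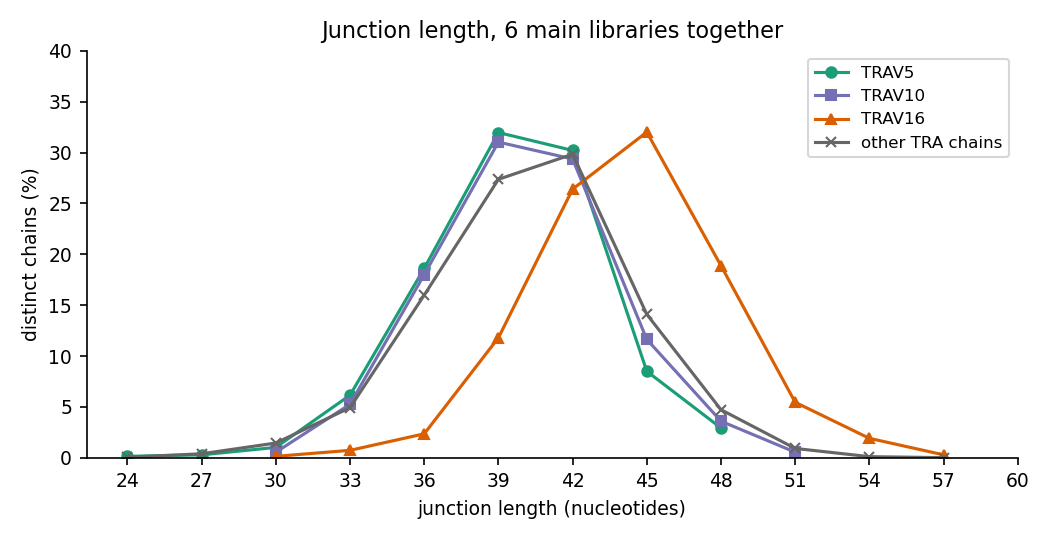
Percent of distinct chains (y axis) by junction length in nucleotides (x axis) for TRAV5, TRAV10, TRAV16 and the other TRA chains of the 6 libraries. TRAV16 peaks at 45 nucleotides, and TRAV5 and TRAV10 peak at 39.

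Junctions with no added bases made up 19.5% of TRAV5, 16.1% of TRAV10 and 18.6% of TRAV16 chains, against 18.9%, 19.0% and 19.0% of the chains outside each subgroup. The differences were 0.586, -2.88 and -0.379 percentage points, and the exact permutation p was 0.5625, 0.125 and 0.906 (adjusted 0.675, 0.1875 and 0.906). The TRAV16 value changed sign without 1 form, 16N3. In it, 1 of 181 chains had no added base (0.552%), and the deposited added length averaged 7.72 nucleotides, against 2.03 to 2.47 in the other TRAV16 forms. Yet 64.6% of 16N3 junctions began with tgtgctatgagagag, as did 63.2% to 77.2% of the other TRAV16 forms. Without 16N3 the TRAV16 difference was 4.27 points (exact permutation p = 0.281).

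Junction length was close between genotypes. Means were 39.6 nucleotides in 5xFAD and 39.4 in WT libraries for TRAV5, 40.2 and 39.5 for TRAV10, and 44.3 and 44.2 for TRAV16. The 5xFAD minus WT differences of 0.17, 0.67 and 0.07 gave exact permutation p of 0.75, 0.50 and 1 over 3 node types, where the smallest possible p is 0.25.

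Some junctions recurred between libraries. A junction with its J gene was found in 2 or more of the 8 tables for 85 of 890 TRAV16 junctions (9.55%), 39 of 599 TRAV10 junctions (6.51%) and 48 of 1141 TRAV5 junctions (4.21%), and for 1067 of 17795 other junctions (6.00%). Shared junctions had no added base in 51.8%, 46.2% and 45.8% of cases, against 11.2%, 11.3% and 14.2% of those seen in 1 table, for TRAV16, TRAV10 and TRAV5. The 5 found in 4 or more tables are printed because they were the most widely shared junctions of the 3 subgroups, with capitals as above for the run shared with a germline V end.
TRAV5 with TRAJ13: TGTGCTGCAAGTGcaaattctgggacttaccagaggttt
TRAV16 with TRAJ12: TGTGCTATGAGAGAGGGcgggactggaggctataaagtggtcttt
TRAV5 with TRAJ22: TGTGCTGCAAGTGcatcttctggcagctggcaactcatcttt
TRAV10 with TRAJ48: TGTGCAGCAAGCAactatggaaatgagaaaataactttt
TRAV16 with TRAJ52: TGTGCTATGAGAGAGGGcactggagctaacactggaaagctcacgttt

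The TRAV5-TRAJ13 junction was found in 6 tables and with 11 different beta chains in 11 cells. The TRAV16-TRAJ12 and TRAV5-TRAJ22 junctions were in 5 tables each, with 6 and 7 different beta chains. The TRAV10-TRAJ48 and TRAV16-TRAJ52 junctions were in 4 tables each, with 4 and 3. Each cell with a beta chain therefore carried a different one in these 5 cases.

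No beta partner of the 3 subgroups passed the test. In cells with 1 alpha and 1 beta chain there were 553 TRAV5, 280 TRAV10 and 520 TRAV16 clonotypes in the 6 libraries, and all 21 TRBV genes were seen with each. Of 33 TRBV and TRBJ genes tested against the other clonotypes, edgeR called 0 in each subgroup (0% each) and DESeq2 0, with 2 and 1 per subgroup at an unadjusted p under 0.05.

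Among the partners named by rule, TRBV14, TRBJ1-1 and TRBJ2-1 had the smallest unadjusted p-values. TRBJ1-1 was found in 75 TRAV5 clonotypes where 55.9 were expected from other chains, and its log2 change was 0.43 ± 0.19 (SE, adjusted p = 0.447). It made up 16.1%, 8.88% and 14.9% of TRAV5 clonotypes in 5xFAD dCLN, sCLN and iLN and 12.2%, 16.3% and 16.9% in WT. TRBV14 was found in 32 TRAV16 clonotypes where 20.2 were expected (0.66 ± 0.28, adjusted p = 0.429). It made up 5.30%, 8.80% and 9.80% in 5xFAD and 6.90%, 4.92% and 2.15% in WT. TRBJ2-1 was found in 20 TRAV10 clonotypes where 31.2 were expected (-0.64 ± 0.29, adjusted p = 0.568), lower than in other clonotypes in 6 of 6 libraries. Of genes too sparse for the rule, chosen after their values were seen, TRBV15 with TRAV5 (-2.28, adjusted p = 0.254), TRBV2 with TRAV16 (-1.50, adjusted p = 0.420) and TRBV4 with TRAV10 (0.73, adjusted p = 0.568) had smaller unadjusted p-values than TRBJ2-1.

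The remaining partners named by the same rule did not pass either. With TRAV5 they were TRBJ1-4 (0.24), TRBJ2-4 (0.14), TRBJ2-5 (-0.13), TRBV31 (-0.24) and TRBJ2-7 (-0.32). With TRAV10 they were TRBV31 (0.30), TRBJ2-5 (0.29) and TRBJ2-7 (0.16). With TRAV16 they were TRBV1 (0.32), TRBJ1-1 (0.18), TRBV13-3 (-0.27), TRBV31 (-0.36) and TRBV4 (-0.52), all as log2 changes. Their adjusted p ranged from 0.430 to 0.995.

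Expanded clones were counted and were not compared with those of other clonotypes. Over 8 tables, 14 of 990 TRAV5, 15 of 535 TRAV10 and 10 of 795 TRAV16 clonotypes had 2 or more cells. The CD4-titled library held 8, 5 and 1 of these, and the mixed library 4, 0 and 0. The largest clonotype had 11 cells, in the CD4-titled library, and joined a TRAV5 chain with TRAJ40 to a TRBV5 chain with TRBJ2-2. The largest TRAV10 clonotype had 4 cells and the largest TRAV16 clonotype 2.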

How the data were processed

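Single-cell T-cell receptor contigs of mouse lymph node cells were deposited as 9 tables, 8 of which were used. Per the submitters' processing notes, Cell Ranger 6.0.1 and Seurat 4.1.0 were used with mm10; their roles are not given in the sources used here. Per the file headers the deposited tables hold UMI and consensus read counts per contig, the V identity as a fraction, and lengths in nucleotides. Two-sided tests were used throughout, and the UMI count served only for depth and for an alternative of 2 or more UMIs.

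Distinct productive TRA chains were counted per library and set on the library's total of distinct chains. Genotypes were compared with edgeR 4.0.16 in R 4.3.3 (quasi-likelihood, node and genotype as terms, features with 10 or more chains, Benjamini-Hochberg threshold 0.05), and partners with library as block. DESeq2 1.42.0 was an alternative. A count of 0 was set at 3 counts of the library's or, for folds, the group's total. V regions were compared with GENCODE transcripts on GRCm38. Shares have exact Clopper-Pearson 95% intervals. Python 3.11.15 with scipy 1.17.1 gave the exact sign-flip tests. Simulated counts were run only for the subgroup fit and the TRAV16 partner fits, not for the fits of copies, alleles or V forms.

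Named were every copy and allele with 10 or more chains, partners past the threshold and, failing 3 in a direction, up to 3 of the largest fitted changes among partners with at least 5 chains per library on average, observed or expected, plus TRAJ50. Members and lists were chosen with earlier results of these data known. Alternatives tried were TMM scaling, no minimum, unambiguous calls, added libraries and leaving out each library. The second CD4-titled library was left out because it shares its cells with the first.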

Additional observations from a re-analysis of the deposited data

Results flagged for a closer look

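The TRAV5 ratio of 5xFAD over WT libraries differed between node types by more than the counting error. Of 9 differences compared, 3 for each subgroup, 2 had a 95% counting interval that did not include 0. The log2 ratio was lower in dCLN than in sCLN by a difference of -0.70 (interval -1.28 to -0.12), and higher in sCLN than in iLN by 1.20 (0.58 to 1.83). Both differences rest on the same pair of sCLN libraries. Between dCLN and iLN the difference was 0.50 (interval -0.10 to 1.11). The intervals were not adjusted for the 9 comparisons. Each group is 1 library, so the spread between animals was not tested.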

How the results depend on the processing

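Replicate numbers pair no samples, because each group has 1 library. In every genotype test 5xFAD and WT libraries were matched by node type. Among values of single items, 542 kept their direction and side of the threshold, 36 changed sign, 10 gained and 18 lost a call; the cause was not tested. Alleles called between genotypes numbered 58, against 38 without ambiguous calls and 0 among chains that match no reference transcript, a choice that removes the difference by construction, and 9 to 57 when 1 library was left out. Copies called numbered 19, against 0 among such chains and 3 to 24 with 1 library left out. Subgroups and TRAJ genes called numbered 0, against 2 with TMM scaling and 1 to 9 with 1 library left out. TRAJ partners called with TRAV10 numbered 3 with the CD4-titled and mixed libraries added and 1 (TRAJ22) with TMM scaling, and with TRAV16 1 with those libraries and 1 with 2 or more UMIs. Pairs of V form and TRAJ gene numbered 15, against 52 with those libraries, 5 with no minimum and 1 to 10 with 1 library left out.

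Log2 changes between genotypes that changed sign were, among chains that match no reference transcript, TRAV5 -0.16, TRAV16D/DV11*01 -0.27, TRAV16*04 -0.21, TRAV5D-4*01 -0.29, TRAV5D-4*02 -0.26, TRAV16*02 -0.51, and the copies TRAV5D-4 -0.27, TRAV16 -0.35, TRAV16D/DV11 -0.30 and TRAV10 0.033. With TMM scaling they were TRAV16D/DV11*01 -0.00045, TRAV5-1*01 -0.11, TRAV5D-4*01 -0.021, TRAV5D-4*02 -0.23 and TRAV16*02 -0.23. Without ambiguous calls they were the TRAV10 subgroup -0.10 and the TRAV16D/DV11 copy -0.066. With 1 library left out, the TRAV10 subgroup ranged from -0.033 to 0.19, TRAV5D-4*02 from -0.12 to 0.91, the TRAV5D-4 copy from -0.20 to 0.83 and the TRAV10 copy from -0.24 to 0.0067.

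Partner changes of opposite sign in WT libraries alone were TRAJ40 with TRAV16 -0.080, TRAJ31 with TRAV5 -0.15, TRBV31 with TRAV10 -0.44 and TRBV31 with TRAV16 0.022. In 5xFAD libraries alone they were TRBJ1-4 -0.033 and TRBJ2-4 -0.042 with TRAV5. With the CD4-titled and mixed libraries they were TRBJ2-7 with TRAV10 -0.053, and TRBJ2-4 -0.011 and TRBJ2-5 0.11 with TRAV5; with 1 library left out TRBJ2-4 ranged from -0.0089 to 0.30 and TRBJ2-5 from -0.28 to 0.0031.

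The difference in junctions with no added bases ranged from -0.0241 to 1.30 points in TRAV5 and from -3.09 to 0.8004 in TRAV16 with 1 library left out, and in TRAV16 was 0.00779 with 2 or more UMIs and 4.27 without 16N3. The genotype difference in junction length ranged from -0.0300 to 0.350 nucleotides in TRAV5, from 0.361 to 1.20 in TRAV10 and from -0.115 to 0.183 in TRAV16 with 1 node type left out, and in TRAV16 was -0.198 without ambiguous calls. The 6 libraries held 35 to 217 chains of a subgroup.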
